A study of Mus musculus with 36 samples.

Results

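Kcnk10, Cd55, Bcar3 and Cav2 were examined as genes that rose from a zero or low level when Pax5 was put back into Pax5-/- pro-B cells. They were chosen by their rows in the table of Pax5-/- libraries, as genes near zero or low with empty vector (EV) and higher with each of 3 Pax5 forms. They are 4 of the 35896 rows of that table, all 4 were among the 13345 genes tested there, and all 4 are also listed in the other 2 RNA-seq tables. The levels in Pax5-/- cells against EV are therefore a description with no test. The tests below compare the Pax5 forms with each other, in libraries that the rule also read, or use other libraries. The data met the rule to different degrees. Kcnk10 and Cd55 were at or near 0 with EV, Bcar3 was low and Cav2 was already at 138 and 182 normalized counts, so that Cav2 is a gene raised from a moderate level rather than one that was switched on.

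RNA-seq was done in 24 mouse libraries, in 3 tables of 4 groups with 2 libraries each. In the first table, pro-B and pre-B cells had been sorted from the bone marrow of 2 wild-type and 2 Sirt7-/- mice, and the Sirt7-/- line of the study is a germline deletion kept on the 129Sv background. In the second, Pax5-/- pro-B cells, of a C57BL/6 line, which the labels place in bone marrow and the methods in fetal liver, carried EV, wild-type Pax5 (Pax5WT), Pax5K198Q or Pax5K198R. In the third, cultured wild-type pro-B cells carried EV, and cultured Sirt7-/- pro-B cells carried EV, Pax5WT or Pax5K198R. All cultured cells were transduced with retrovirus and grown over OP9 feeder cells, with IL-7, SCF and FLT3-L. OP9 is a mouse bone marrow stromal line, so that feeder RNA would map to the same genome. Transduced pro-B cells were, by the methods, selected by sorting for a vector marker, which feeder cells without the vector would not carry. By the methods the mice were adults of both sexes, apart from the fetal source of the Pax5-/- progenitors. The peak lists, 6 in all, came from Pax5 ChIP–seq of Pax5-/- cells that carried 1 of the forms, 2 replicates a form. The source and cell type labels of 4 sorted libraries disagree with their titles about the stage, and the titles were followed. The markers separated the libraries by title, as the summed level of 8 immature and mature B cell markers ran from 43252 to 57422 normalized counts in the 4 libraries titled pro-B and from 183549 to 434881 in the 4 titled pre-B.

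Pax5 is the transcription factor that commits progenitors to the B cell lineage. It switches on B cell genes such as Blnk and represses genes of other lineages, and Pax5-/- progenitors stop at the pro-B stage and keep the ability to form other blood cells. Sirt7 is a deacetylase, and at the altered residue glutamine (Pax5K198Q) stands in for acetylated lysine while arginine (Pax5K198R) cannot be acetylated. Kcnk10 encodes a potassium leak channel of the K2P family. Cd55, or decay-accelerating factor, is a surface protein that protects cells from complement. Bcar3 is an adaptor with an SH2 domain that binds scaffold proteins of the Cas family, and Cav2, caveolin-2, is a membrane protein that works with caveolin-1 in caveolae.

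Pax5 peaks lay at 3 of the 4 loci in all 6 lists, and the strongest was inside Kcnk10. The loci, in the mm10 (GRCm38) build, are chr12:98429437-98578310 on the minus strand for Kcnk10, chr1:130439027-130462744 on the minus strand for Cd55, chr3:122294136-122530191 on the plus strand for Bcar3 and chr6:17281185-17289115 on the plus strand for Cav2. A peak in both replicates lay within 50 kb of 3 of the 4 genes with Pax5WT, with Pax5K198Q and with Pax5K198R, where 65.2%, 31.5% and 69.7% of the 13295 tested genes with coordinates had one. The members' count is thus close to that of genes at large for Pax5WT and Pax5K198R. Within 10 kb, the count was 2 of 4 for each form, Kcnk10 and Bcar3, where 44.5%, 17.6% and 50.4% of those genes had one with Pax5WT, Pax5K198Q and Pax5K198R. Each window took in the whole gene, 148.874 kb for Kcnk10, 236.056 kb for Bcar3, 23.718 kb for Cd55 and 7.931 kb for Cav2. The shares over all genes were not matched for gene length. No list held a peak within 100 kb of Cav2. Each list was called on 1 replicate over its own input, from 3750 and 3957 peaks for Pax5K198Q to 12158 and 13997 for Pax5K198R.

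The sequences under the peaks that all 6 lists shared within 50 kb of a gene are shown because they are where Pax5 was measured at these loci. For Kcnk10 the print starts 21 bp from the summit of Pax5WT replicate 1 and leaves out the transcribed side. They were read from the RefSeq GRCm38 genome, plus strand, 5′ to 3′. Capitals mark the letters GNGTGAC, searched on both strands as a short Pax5-like core. The windows are chr12:98575128-98575277 for Kcnk10, before an internal start of the gene, chr1:130475066-130475265 for Cd55, and chr3:122293113-122293312 and chr3:122406580-122406779 for Bcar3.
Kcnk10 internal start: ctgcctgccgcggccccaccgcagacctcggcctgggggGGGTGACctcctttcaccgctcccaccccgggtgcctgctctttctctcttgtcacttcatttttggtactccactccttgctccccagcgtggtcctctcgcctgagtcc
Cd55 upstream: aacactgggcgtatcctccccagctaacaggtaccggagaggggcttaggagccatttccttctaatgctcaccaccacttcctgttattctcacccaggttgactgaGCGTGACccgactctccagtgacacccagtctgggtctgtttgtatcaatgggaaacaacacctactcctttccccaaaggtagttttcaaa
Bcar3 upstream: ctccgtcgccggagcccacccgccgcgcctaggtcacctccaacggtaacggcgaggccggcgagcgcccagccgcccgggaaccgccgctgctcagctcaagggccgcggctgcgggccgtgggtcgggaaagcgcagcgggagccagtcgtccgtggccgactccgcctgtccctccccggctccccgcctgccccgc
Bcar3 intron: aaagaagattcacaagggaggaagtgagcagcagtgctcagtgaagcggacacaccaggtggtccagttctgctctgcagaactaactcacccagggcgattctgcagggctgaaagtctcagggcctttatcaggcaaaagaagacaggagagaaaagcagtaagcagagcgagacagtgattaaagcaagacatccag
The Cd55 window held the stricter letters GCGTGAC, 9 bp from the Pax5WT replicate 1 summit, and the Kcnk10 window held GGGTGAC, 60 bp from it. Neither Bcar3 window held either pattern. In 200-bp windows around the summits of Pax5WT replicate 1, 5.5% of 10639 held GCGTGAC and 16.3% held GNGTGAC, and in all 32851 promoters of 300 bp the shares were 2.09% and 13.6%. GNGTGAC contains GCGTGAC and was chosen after the windows were seen. A match is a run of letters, not a measured site.

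The Kcnk10 peak lay 3.21 kb inside the gene, over an exon and 31 bp from an internal annotated start. Its fold enrichment over input, the height of a peak relative to the input library, was 28.9 and 27.1 with Pax5WT, 13.9 and 18.6 with Pax5K198Q and 17.4 and 35.1 with Pax5K198R. It was among the tallest peaks of every list, since between 0.0786% and 1.84% of the peaks in the same list were higher. The Pax5K198Q values were below both Pax5WT values, and the Pax5K198R values lay on either side of them. A weaker peak in the intron behind it, 5.9 kb from the start, was in 1 Pax5WT and 1 Pax5K198R list, and 1 Pax5K198Q list held a peak beyond the far end of the gene, 184.56 kb from the start.

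The Cd55 peak in all 6 lists lay upstream, at -12.42 kb from the gene start, inside the annotated noncoding genes Gm16083 and Gm37283. Its fold enrichment was 15.5 and 9.61 with Pax5WT, 13.1 and 8.03 with Pax5K198Q and 8.01 and 17.5 with Pax5K198R, so that the forms overlapped. A pair of further peaks at -86.62 and -88.17 kb was in 6 of 6 lists as well. At the Cd55 start itself, 0.14 kb into the gene, a peak was called in 1 Pax5WT and 1 Pax5K198R list.

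Bcar3 had the most peak regions, 13 within 50 kb, but it is also the longest of the 4 genes (236.056 kb) and the window includes the gene. The region at -48.62 kb lay 36 bp from the start of Gclm, and that at -19.7 kb lay 17 bp from the start of Dnttip2. Of the 13 regions, 2 were in all 6 lists. The first, at -0.93 kb, had a fold enrichment of 16.3 and 16.0 with Pax5WT, 4.50 and 5.87 with Pax5K198Q and 5.49 and 17.1 with Pax5K198R. Both Pax5K198Q values were below both Pax5WT values there, and the 2 Pax5K198R replicates lay far apart. The second, in an intron 112.48 kb into the gene, had 6.62 and 15.1 with Pax5WT, 5.17 and 10.7 with Pax5K198Q and 14.4 and 10.3 with Pax5K198R, and its forms overlapped. The other 11 Bcar3 regions were found only in Pax5WT or Pax5K198R lists. With 2 lists a form, no test of these heights was made. The read depths of the ChIP–seq libraries, which the study lists, were not used here.

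**Figure D1:**
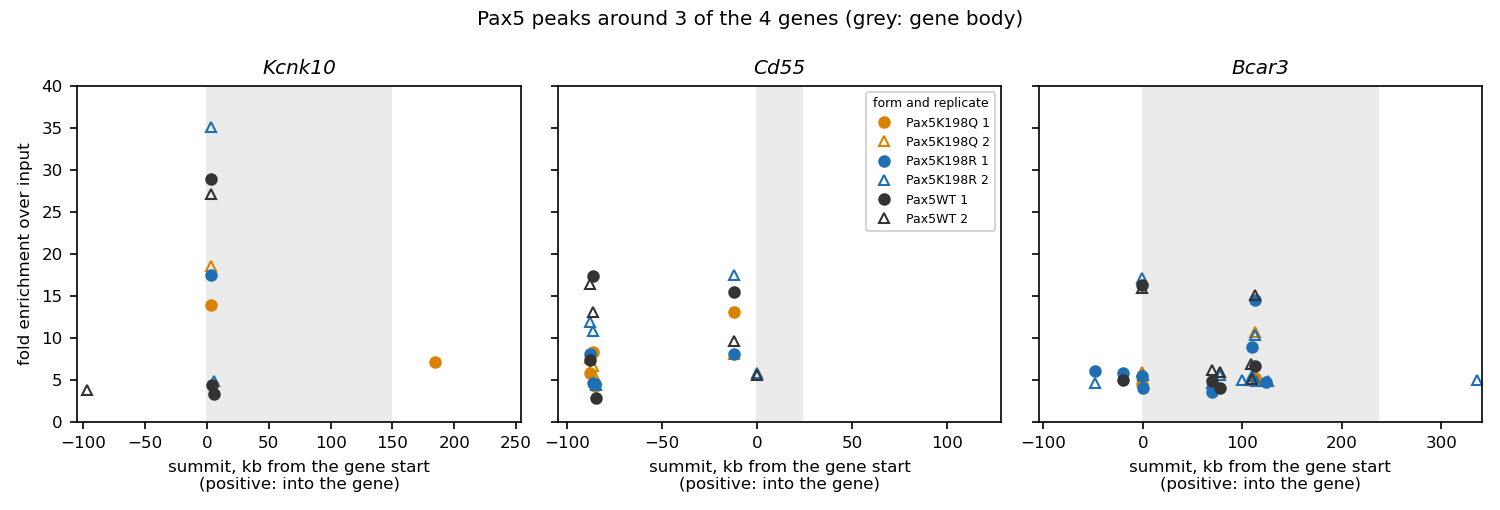
Fold enrichment over input (vertical axis) of each Pax5 peak by distance of its summit from the gene start in kb (horizontal axis, positive into the gene), for Kcnk10, Cd55 and Bcar3, with colour for the Pax5 form and marker for the replicate. The Kcnk10 peak near the start reaches from 13.9 to 35.1, while the peaks around Cd55 stay at or below 17.5 and those around Bcar3 at or below 17.1; Cav2 had no peak within 100 kb.

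The levels of Pax5 itself differed between the groups of Pax5-/- cells. Pax5 was listed at 2201 and 2103 normalized counts with EV, 6458 and 6152 with Pax5WT, 8918 and 8963 with Pax5K198Q and 21162 and 16609 with Pax5K198R. Counts are not 0 with EV, and which exons the null allele keeps is not given in the sources used here, so that the count does not check the genotype. Pax5 RNA was higher with Pax5K198R than with Pax5WT by a log2 fold change of 1.57 (SE 0.12, adjusted p = 0.0029 in limma), whereas Pax5K198Q and Pax5WT differed by 0.50 (SE 0.12, adjusted p = 0.558). The part of the Pax5 RNA level in the differences between forms below was not tested.

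Kcnk10 had the largest increase common to all forms. Its normalized counts were 0.904 and 0 with EV, 671 and 462 with Pax5WT, 388 and 260 with Pax5K198Q and 998 and 584 with Pax5K198R. EV stood apart from every form, Pax5K198Q lay below the others, and Pax5WT and Pax5K198R overlapped. The ratio of group means to EV was 1252 with Pax5WT (95% Poisson interval 225 to 49464), 716 with Pax5K198Q (129 to 28281) and 1748 with Pax5K198R (314 to 69055). These intervals treat the normalized counts as reads, cover counting error only and are wide because EV rests on a single library with under 1 count.

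Cd55 was listed at 0 in both EV libraries. It reached 34.4 and 52.4 normalized counts with Pax5WT, 28.3 and 22.8 with Pax5K198Q and 176 and 231 with Pax5K198R. The 4 groups did not overlap, with Pax5K198R far above the rest. Against a floor of 3 normalized counts per library, the means were at least 14.5-fold higher with Pax5WT, at least 8.51-fold higher with Pax5K198Q and at least 67.9-fold higher with Pax5K198R. Housekeeping genes such as Actb and Tbp were well above 0 in all libraries, with Tbp never under 1004 in the Pax5-/- table.

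Bcar3 was low but present with EV, at 18.3 and 20.7 normalized counts. It was at 104 and 72.5 with Pax5WT, 70.5 and 45.7 with Pax5K198Q and 730 and 414 with Pax5K198R. The groups did not overlap, although the lower Pax5WT library (72.5) and the higher Pax5K198Q library (70.5) were close. The ratios of means to EV were 4.52, 2.98 and 29.4. For Cav2 the counts were 138 and 182 with EV, 287 and 331 with Pax5WT, 211 and 229 with Pax5K198Q and 322 and 367 with Pax5K198R. All form libraries of Cav2 were above both EV libraries, Pax5WT and Pax5K198R overlapped, and the ratios were only 1.93, 1.38 and 2.16.

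**Figure D2:**
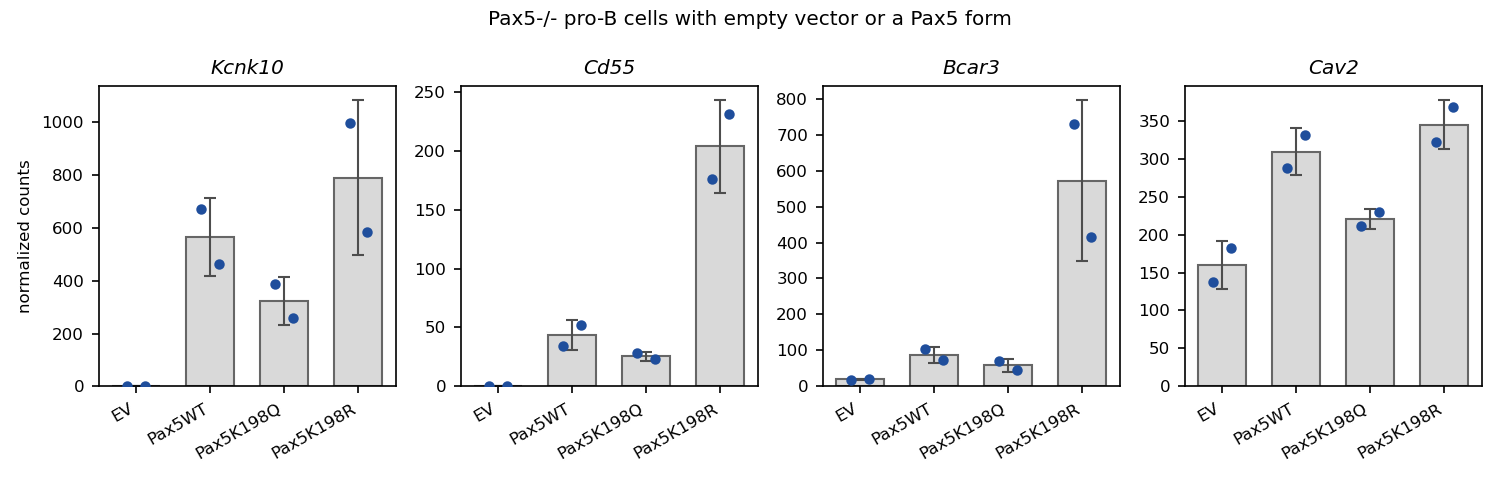
Normalized counts (vertical axes, each from 0) of Kcnk10, Cd55, Bcar3 and Cav2 in Pax5-/- pro-B cells by group, with 1 point per library, bars at the mean and error bars of 1 SD (n = 2). Kcnk10 and Cd55 sit at or near 0 with EV, Cd55 and Bcar3 are highest with Pax5K198R, and Cav2 starts at 138 and 182 with EV.

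As a description of where the genes stood, the 13345 tested genes were ranked by the smallest of the 3 log2 differences from EV. Kcnk10 was first (7.85), ahead of Blnk (6.67), an adaptor of pre-B cell receptor signalling. Cd55 was seventh (rank 7, 4.72), just ahead of Col27a1 (4.68). Bcar3 was at rank 119 (1.499) between Rsph1 (1.51) and Ltk (1.496), and Cav2 at rank 519 (0.47) just behind Sash1 (0.47). Genes of the Pax5-/- table were called at an adjusted p under 0.05 if they also differed by 1.5 or more on the log2 scale. Past this rule were 3 of the 4 with Pax5WT, 2 with Pax5K198Q and 3 with Pax5K198R, where 1.26%, 0.629% and 1.45% of all tested genes were called higher. Since these contrasts chose the genes, nothing is read from those counts. Per kb of exon, the mean levels with Pax5K198R were 90.1 normalized counts for Kcnk10, 42.0 for Cd55, 102 for Bcar3 and 103 for Cav2, so that Cd55 was the least abundant of them there.

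The comparisons between Pax5 forms use the form libraries that the rule read. The higher Cd55 and Bcar3 levels with Pax5K198R were known when the genes were chosen, so that their tests are not independent evidence. Cd55 and Bcar3 rose with Pax5K198R compared to Pax5WT, and Kcnk10 and Cav2 were not called. The log2 fold change was 2.22 for Cd55 (SE 0.40, adjusted p = 0.0299) and 2.65 for Bcar3 (SE 0.37, adjusted p = 0.0129), against 0.45 for Kcnk10 (SE 0.42, adjusted p = 0.812) and 0.16 for Cav2 (SE 0.20, adjusted p = 0.898). So 2 of 4 were called, where 1.6% of all tested genes were. Since the rule read these libraries, nothing is read from that count. The Cd55 call was lost without any 1 of the 4 libraries compared, with log2 fold changes from 1.92 to 2.52. It was also lost without the filter on low values. The Bcar3 call was lost without Pax5WT replicate 1 (2.91, adjusted p = 0.0577) or Pax5WT replicate 2 (2.40, adjusted p = 0.125).

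Compared to Pax5K198Q, Pax5K198R raised the same 2 genes, Cd55 by 2.94 (SE 0.40, adjusted p = 0.00866) and Bcar3 by 3.25 on the log2 scale (SE 0.37, adjusted p = 0.00569). Kcnk10 differed by 1.26 (SE 0.42, adjusted p = 0.159) and Cav2 by 0.64 (SE 0.20, adjusted p = 0.134). Of all tested genes, 2.53% were called. The rule read both of these groups, so that nothing is read from the count of members here either. Without Pax5K198Q replicate 1, Pax5K198Q replicate 2 or Pax5K198R replicate 2, the Cd55 adjusted p was 0.0602, 0.0855 and 0.053, and without Pax5K198Q replicate 2 that of Bcar3 was 0.0594. Between Pax5K198Q and Pax5WT none of the 4 was called, and 0.0225% of all tested genes were (3 in limma, with 462 at an unadjusted p under 0.05). All 4 values were lower with Pax5K198Q, by log2 differences of -0.81 for Kcnk10 (SE 0.42), -0.72 for Cd55 (SE 0.40), -0.60 for Bcar3 (SE 0.37) and -0.49 for Cav2 (SE 0.20), each with an adjusted p of 1 in limma.

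Genes known from textbooks as activated by Pax5 gave the setting for these levels. Of 19 such genes, 18 were tested in Pax5-/- cells, and compared to EV 9 rose and 0 fell with Pax5WT, 7 rose with Pax5K198Q and 12 with Pax5K198R, with median log2 fold changes of 1.81, 1.36 and 2.90 where the medians of all genes were within 0.02 of 0. Of all tested genes, 1.26%, 0.629% and 1.45% were called higher with Pax5WT, Pax5K198Q and Pax5K198R. Blnk rose by 7.67, 6.67 and 9.51. With Pax5K198R compared to Pax5WT, 2 of the 18 rose, where 0.285% of all tested genes were called higher and 1.31% lower. Among the 2 was Siglecg, an inhibitory receptor (4.19, SE 0.30, adjusted p = 0.0029). Lef1, a factor of Wnt signalling, fell (-1.98, SE 0.25, adjusted p = 0.0102). Of 12 genes known as repressed by Pax5, 4 fell with Pax5K198R compared to EV, where 3.13% of all tested genes were called lower. They were Csf1r, Fcer1g, Id2 and Ccr2, at log2 values of -2.91, -2.48, -1.93 and -1.69. None of the 12 was called with Pax5WT or Pax5K198Q.

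With Pax5K198R compared to EV, 1 of 3 tested K2P channels, 2 of 6 complement regulators, 2 of 13 Bcar3 partners and 0 of 6 caveolar genes were called in Pax5-/- cells, where 4.59% of all tested genes were called in either direction. Of 13 other K2P channel genes, 3 were tested in Pax5-/- cells, and Kcnk12 fell with Pax5K198R compared to EV (-2.57, SE 0.46, adjusted p = 0.0126). Of 11 other complement regulators, 6 were tested. Cr2, the complement receptor of B cells, rose with Pax5WT (3.85, SE 0.70, adjusted p = 0.0307) and Pax5K198R (6.86, SE 0.70, adjusted p = 0.00135), and C4bp, a complement inhibitor, with Pax5K198R (3.29, SE 0.40, adjusted p = 0.00284). Of 14 partners and relatives of Bcar3, 13 were tested, and with Pax5K198R the Cas-family genes Nedd9 (1.51, SE 0.26, adjusted p = 0.0105) and Cass4 (-1.66, SE 0.37, adjusted p = 0.0281) moved in opposite directions. Of 8 caveolar genes, 6 were tested and 0 were called with any form, at 1921, 1049 and 3056 of all genes with an unadjusted p under 0.05 in limma for Pax5WT, Pax5K198Q and Pax5K198R.

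The pattern of each member over the 8 Pax5-/- libraries was closest, by Pearson's r of log2 values among 10966 genes with a mean of at least 50, to the following genes. For Kcnk10 they were Arhgef33 (0.995), Myof (0.995) and Hipk2 (0.993). For Cd55 they were Wdcp (0.997), Atp1b1 (0.993) and Vpreb3 (0.993), the last in the list of Pax5-activated genes. For Bcar3 they were Pgf, Stk4 and Tpst1 (each 0.989), and for Cav2 Esyt1 (0.984), Slc29a1 (0.981) and Pcgf5 (0.980). The libraries share their groups, and with this many genes high values of r are found for most patterns, so that they are a description only.

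Among the nearest protein-coding genes, C4bp, 172029 bp from Cd55, followed it in part. C4bp was at 27.3 and 13.4 normalized counts with EV, 25.3 and 32.0 with Pax5WT, 44.4 and 33.5 with Pax5K198Q and 168 and 230 with Pax5K198R. EV and Pax5WT overlapped, and Pax5K198R was far above the rest, by a log2 fold change of 2.75 compared to Pax5WT (SE 0.40, adjusted p = 0.0154). Cd55b, the near copy of Cd55 at 16018 bp, was never above 1.03 in Pax5-/- cells, although reads of near copies can be split by the quantification. Cav1, the partner of Cav2 at 17220 bp, did not follow the forms, with replicate 1 between 21.2 and 40.5 and replicate 2 between 103 and 215 in every group. Dnttip2, Gclm, Fnbp1l and Pde5a around Bcar3 were not called in any comparison of Pax5-/- cells, with absolute log2 fold changes of at most 1.12.

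Markers of other cells were set beside these results. In the Pax5-/- libraries the summed stroma and feeder markers, led by Fn1, were 3605 and 4754 normalized counts with EV, 3042 and 7517 with Pax5WT, 3665 and 5947 with Pax5K198Q and 3678 and 4860 with Pax5K198R. The sums of the groups overlapped, although 9, 10 and 9 of the 11 tested markers had higher values with Pax5WT, Pax5K198Q and Pax5K198R than with EV (median log2 fold changes of 0.52, 0.45 and 0.28), and Dcn and Lum were at 0 in all 8 libraries. The summed early B cell markers, led by Igll1, moved with the forms, from 17520 and 22021 with EV to 54140 and 57318 with Pax5WT, 45169 and 42153 with Pax5K198Q and 77953 and 81423 with Pax5K198R. NK cell markers went the other way, from 1226 and 1106 with EV to 313 and 162 with Pax5K198R. The sum of the plasma cell markers was also lower with the forms, from 76369 and 74259 with EV to 39073 and 31224 with Pax5K198R. It was mostly Jchain, at 67983 in EV replicate 1. Of the 3 plasma cell markers tested, 1 was higher than EV with each form and 0 were called. Summed myeloid markers, led by Itgam, were 1014 and 732 with EV and 485 and 466 with Pax5WT. With Pax5K198Q they were 746 and 717, and with Pax5K198R 659 and 413. Of the 4 tested, 1 was called higher and 0 lower with Pax5WT compared to EV. With Pax5K198Q 0 were called, and with Pax5K198R 1 was called higher and 2 lower. The part of all these markers in the members' differences was not tested. In bulk samples fewer cells of a type and less RNA per cell cannot be told apart.

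In sorted cells, the 4 genes did not share a pattern. Cd55 and Bcar3 had higher levels after the step to the pre-B stage, Cav2 was not called and Kcnk10 was near the limit of detection. Sirt7, the deleted gene, was at 2692 and 2533 normalized counts in the wild-type pro-B libraries, 5613 and 5219 in wild-type pre-B, 363 and 366 in Sirt7-/- pro-B and 1066 and 821 in Sirt7-/- pre-B cells, which separates the genotypes at each stage. Pax5 was between 82788 and 92895 in the pro-B and between 120493 and 146580 in the pre-B libraries.

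Pro-B cells had Cd55 at 1395 and 1626 normalized counts in the wild type and 1642 and 1470 without Sirt7. It reached 11709 and 10875 in wild-type pre-B cells and 12336 and 9783 in Sirt7-/- pre-B cells. The stages did not overlap and the genotypes did. From pro-B to pre-B cells Cd55 rose by a log2 fold change of 2.90 in wild-type (SE 0.14, adjusted p = 0.000103) and 2.82 in Sirt7-/- cells (SE 0.14, adjusted p = 0.00013), and the difference between genotypes was -0.08 (SE 0.20, adjusted p = 0.996). Per kb of exon, Cd55 was by far the most abundant of the 4 in wild-type pre-B cells, at 2327 normalized counts against 290 for Bcar3, 80.2 for Cav2 and 0.715 for Kcnk10.

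Bcar3 was at 673 and 687 normalized counts in the wild-type pro-B libraries, 729 and 779 in Sirt7-/- pro-B, 1824 and 1431 in wild-type pre-B cells and 2644 and 2233 in Sirt7-/- pre-B cells. None of the groups overlapped, and Sirt7-/- pre-B cells were highest. Of all tested genes, 72.6% (wild-type) and 69.8% (Sirt7-/-) had the stages apart, and 39.3% (pro-B) and 41.4% (pre-B) the genotypes. The rise from pro-B to pre-B cells was 1.69 in Sirt7-/- cells (SE 0.15, adjusted p = 0.000598) and 1.25 in wild-type cells (SE 0.15, adjusted p = 0.00109), the latter under the required 1.5. The difference between these rises, a test added after the values were seen, was 0.44 (SE 0.22, adjusted p = 0.916), so that a difference between genotypes was not shown. Thus 1 of the 4 genes was called by stage in wild-type and 2 in Sirt7-/- cells, where 13.9% and 10.2% of all tested genes were called, and 0 in the interaction, where 0.00567% were (1 gene in limma, with 959 at an unadjusted p under 0.05).

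Cav2 was at 230 and 175 normalized counts in the wild-type pro-B libraries, 227 and 208 in Sirt7-/- pro-B, 321 and 214 in wild-type pre-B cells and 166 and 168 in Sirt7-/- pre-B cells. The last were the lowest and the other groups overlapped. Kcnk10 was at 15.9 and 35.4 in wild-type pro-B cells, 13.8 and 17.5 in Sirt7-/- pro-B, 12.5 and 0 in wild-type pre-B cells and 0 and 20.02 in Sirt7-/- pre-B cells. All neighbouring groups in its order overlapped, at a depth of 50004827 to 55536608 reads a library, and the stage differences of -2.75 and -1.85 (SE 1.67 each) had adjusted p-values of 0.233 and 0.426 in limma. Pro-B cells sorted directly from bone marrow thus had Kcnk10 between 13.8 and 35.4 normalized counts with Pax5 RNA abundant.

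Between genotypes, none of the 4 was called at either stage, where 0.0623% of all genes in pro-B and 0.085% in pre-B cells were called (11 and 15 genes in limma, 10 and 5 in edgeR, with 1048 and 2405 genes at an unadjusted p under 0.05). In pre-B cells Bcar3 differed by 0.59 (SE 0.15, adjusted p = 0.195) and Cav2 by -0.65 (SE 0.26, adjusted p = 0.338), and Cd55 by -0.04 (SE 0.14, adjusted p = 0.94). In pro-B cells the differences of Cd55, Bcar3 and Cav2 were 0.04, 0.15 and 0.12 (SE 0.14, 0.15 and 0.26). The immature and mature B cell markers rose with stage together with Cd55 and Bcar3, and 7 of these 8 were called higher in pre-B cells of each genotype. T cell markers, led by Lck, went the other way, from sums of 6767 to 7418 normalized counts in pro-B to 3195 to 3872 in pre-B libraries, and 7 of 10 were called lower in wild-type and 5 of 10 in Sirt7-/- cells, with Cd3e at 0 in all 4 pre-B libraries. Plasma cell markers summed to between 25866 and 65131 in pro-B libraries, led by Jchain, and between 8610 and 9795 in pre-B libraries, with 1 of 4 called lower in each genotype. Erythroid markers, led by Hba-a1, stood at 26507 in Sirt7-/- pro-B replicate 2 and 45879 in Sirt7-/- pre-B replicate 2. These libraries share a label number, read as the same mouse. The other 6 libraries had at most 11212. The part of these markers was not tested.

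Other genes of the lists moved with stage in both directions. Of all tested genes, 4.34% were called higher and 9.55% lower in wild-type pre-B cells, and 4.22% and 6.03% in Sirt7-/- pre-B cells. Of the 19 Pax5-activated genes, wild-type cells had 5 that rose and 1 that fell, and Sirt7-/- cells had 6 and 1, with Fcer2a the most raised (5.56 and 6.16). Of the 12 Pax5-repressed genes 8 fell in each genotype, with medians of -3.15 and -2.73 against -0.04 for all genes. Among 6 tested K2P channels, Kcnk13 rose (1.66 and 1.95, adjusted p = 0.00198 and 0.0016) and Kcnk12 fell (-3.99 and -3.38, adjusted p = 0.0248 and 0.0483) in wild-type and Sirt7-/- cells, and Kcnk5 fell in wild-type cells (-1.70, adjusted p = 0.000741), with a difference between genotypes of 0.95 (adjusted p = 0.774). Of 13 tested Bcar3 partners and of 2 caveolar genes, 0 were called by stage, and between genotypes 0 of any list were called.

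**Figure D3:**
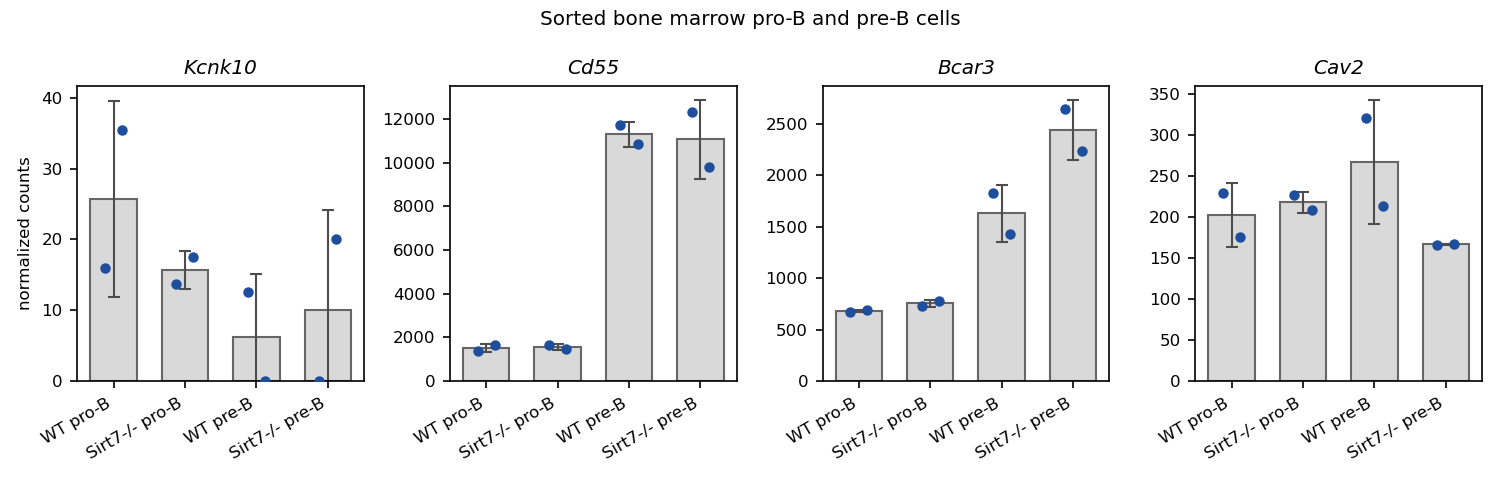
Normalized counts (vertical axes, each from 0) of Kcnk10, Cd55, Bcar3 and Cav2 in sorted cells of both genotypes and both stages, with 1 point per library, bars at the mean and error bars of 1 SD (n = 2). Cd55 lies between 1395 and 1642 in all pro-B and between 9783 and 12336 in all pre-B libraries, while Kcnk10 stays at or below 35.4.

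Cultured wild-type and Sirt7-/- cells have Pax5 of their own, and the fold change of Pax5 RNA with the vectors was smaller there than in Pax5-/- cells. Sirt7 was at 1324 and 905 normalized counts in wild-type cells with EV and between 325 and 407 in the 6 Sirt7-/- libraries. Pax5 was at 23862 and 27134 in wild-type EV, 25995 and 37114 in Sirt7-/- EV, 43024 and 43260 with Pax5WT and 38690 and 45426 with Pax5K198R. Compared to EV, the log2 fold change of Pax5 was 0.47 with Pax5WT (SE 0.18, adjusted p = 0.426) and 0.43 with Pax5K198R (SE 0.18, adjusted p = 0.241). Neither passed the threshold.

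Bcar3 was the one member that again stepped up from group to group. Its normalized counts were 881 and 571 in wild-type EV, 1769 and 1308 in Sirt7-/- EV, 2954 and 2680 with Pax5WT and 4042 and 4544 with Pax5K198R. The groups did not overlap. Each step taken alone separated its groups for 34.6%, 38.7% and 37.7% of all tested genes, in that order. It rose with Pax5K198R compared to EV (1.49, SE 0.22, adjusted p = 0.0122). The call was lost without Sirt7-/- EV replicate 2 (1.28, adjusted p = 0.0685), Pax5K198R replicate 1 (1.58, adjusted p = 0.0542) or Pax5K198R replicate 2 (1.41, adjusted p = 0.0999). The other steps were not called. Sirt7-/- and wild-type EV differed by 1.10 (SE 0.22, adjusted p = 0.106). The step was 0.89 between Pax5WT and EV (SE 0.22, adjusted p = 0.244) and 0.61 between Pax5K198R and Pax5WT (SE 0.22, adjusted p = 0.412). With the replicate number as a block, the steps between the EV groups and between Pax5WT and EV were called. Without wild-type EV replicate 1, the step between the EV groups was 1.41 (adjusted p = 0.041).

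Kcnk10 went the opposite way to its course in Pax5-/- cells. It was at 276 and 236 normalized counts in wild-type EV, 499 and 267 in Sirt7-/- EV, 175 and 88.2 with Pax5WT and 107 and 68.9 with Pax5K198R. Both groups with added Pax5 were below both EV groups and overlapped each other. Kcnk10 fell with Pax5K198R compared to EV (-2.07, SE 0.42, adjusted p = 0.0333), a call lost without any 1 of the 4 libraries compared or without the filter on low values, with log2 fold changes from -2.52 to -1.62. With Pax5WT the value was -1.55 (SE 0.42, adjusted p = 0.273), and it was called with the replicate number as a block. Cultured pro-B cells with their own Pax5 thus had Kcnk10 between 236 and 499 normalized counts with EV, where sorted pro-B cells had at most 35.4, in tables that were normalized separately.

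Cd55 was at 940 and 774 normalized counts in wild-type EV, 504 and 596 in Sirt7-/- EV, 906 and 1126 with Pax5WT and 321 and 865 with Pax5K198R. Pax5WT lay above Sirt7-/- EV, and the Pax5K198R libraries spanned most of the range. Compared to EV the log2 fold change was 0.88 with Pax5WT (SE 0.40, adjusted p = 0.52) and -0.06 with Pax5K198R (SE 0.40, adjusted p = 0.967), and between the EV groups it was -0.64 (SE 0.40, adjusted p = 0.766). Cav2 was at 279 and 231, 191 and 260, 222 and 335, and 154 and 292 in the same order of groups. All groups of Cav2 overlapped, and no comparison called it, with log2 fold changes between -0.36 and 0.29 (SE 0.35).

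**Figure D4:**
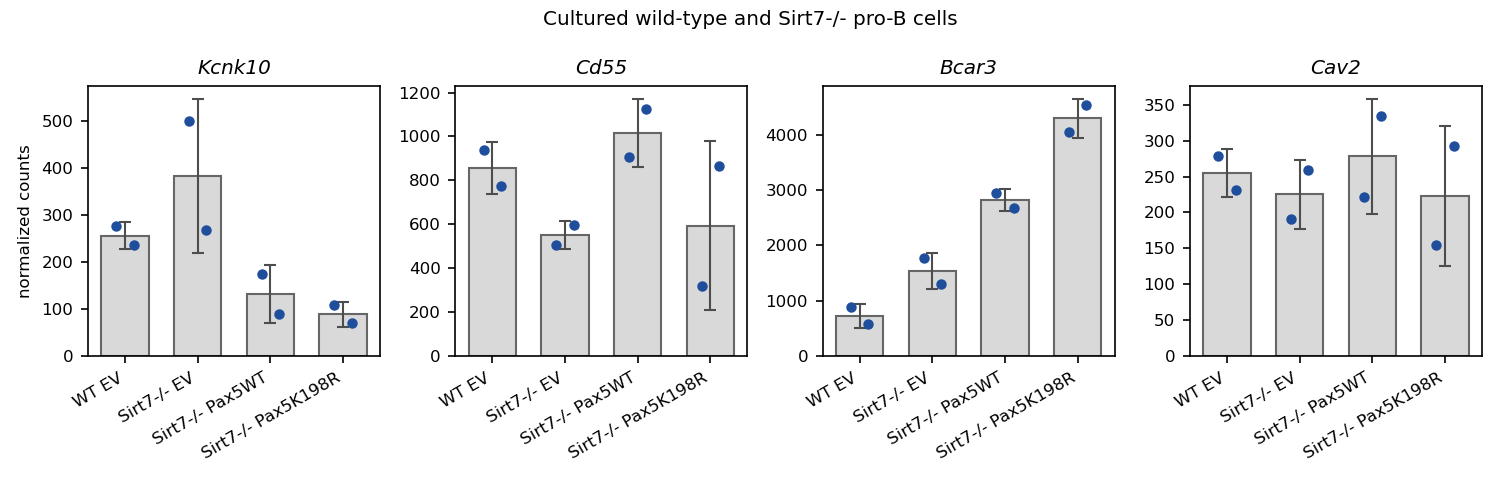
Normalized counts (vertical axes, each from 0) of Kcnk10, Cd55, Bcar3 and Cav2 in cultured wild-type cells with EV and Sirt7-/- cells with EV, Pax5WT or Pax5K198R, with 1 point per library, bars at the mean and error bars of 1 SD (n = 2). Bcar3 increases from 881 and 571 in wild-type EV to 4042 and 4544 with Pax5K198R, while Kcnk10 is below both EV groups with either Pax5 form.

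In numbers, 0 of the 4 genes were called between Sirt7-/- and wild-type EV and 0 with Pax5WT compared to EV, where 0.557% and 0.0366% of all tested genes were called (76 and 5 genes in limma, with 1322 and 1353 at an unadjusted p under 0.05). These 2 counts of members were 1 (Bcar3) and 2 (Kcnk10 and Bcar3) with the replicate number as a block. With Pax5K198R compared to EV, 1 was higher and 1 lower, where 4.83% of all genes were called. With Pax5K198R compared to Pax5WT 0 were called, where 0.425% of all genes were (58 genes in limma, with 1199 at an unadjusted p under 0.05).

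Of the 4 genes nearest to Kcnk10, Gpr65 and Galc also fell with Pax5K198R compared to EV in these cells. Gpr65, a proton-sensing receptor 152793 bp away, was at 254 and 302 normalized counts in wild-type EV, 151 and 147 in Sirt7-/- EV, 44.6 and 34.8 with Pax5WT and 7.79 and 4.80 with Pax5K198R. Its groups did not overlap, and it fell with Pax5K198R compared to EV (-4.39, SE 0.32, adjusted p = 0.00126) and compared to Pax5WT (-2.50, SE 0.32, adjusted p = 0.0279). Galc, a lysosomal enzyme gene at 169978 bp, fell with Pax5K198R compared to EV by a log2 value of -2.14 (SE 0.33, adjusted p = 0.0144). Between Sirt7-/- and wild-type EV, Gpr65 and Galc differed by -0.89 and -0.55 and Kcnk10 by 0.52, none of them called (adjusted p = 0.406, 0.749 and 0.888). In Pax5-/- cells, in contrast, Galc rose with Pax5K198R compared to EV (1.79, SE 0.39, adjusted p = 0.0257) and Gpr65 values were higher with the 3 forms by 1.55 to 1.80 (SE 0.48), with no call. Spata7 and Ptpn21, on the other side of Kcnk10, were not called in either table. The difference between the cultures, whose mice also differ in strain, was not tested.

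**Figure D5:**
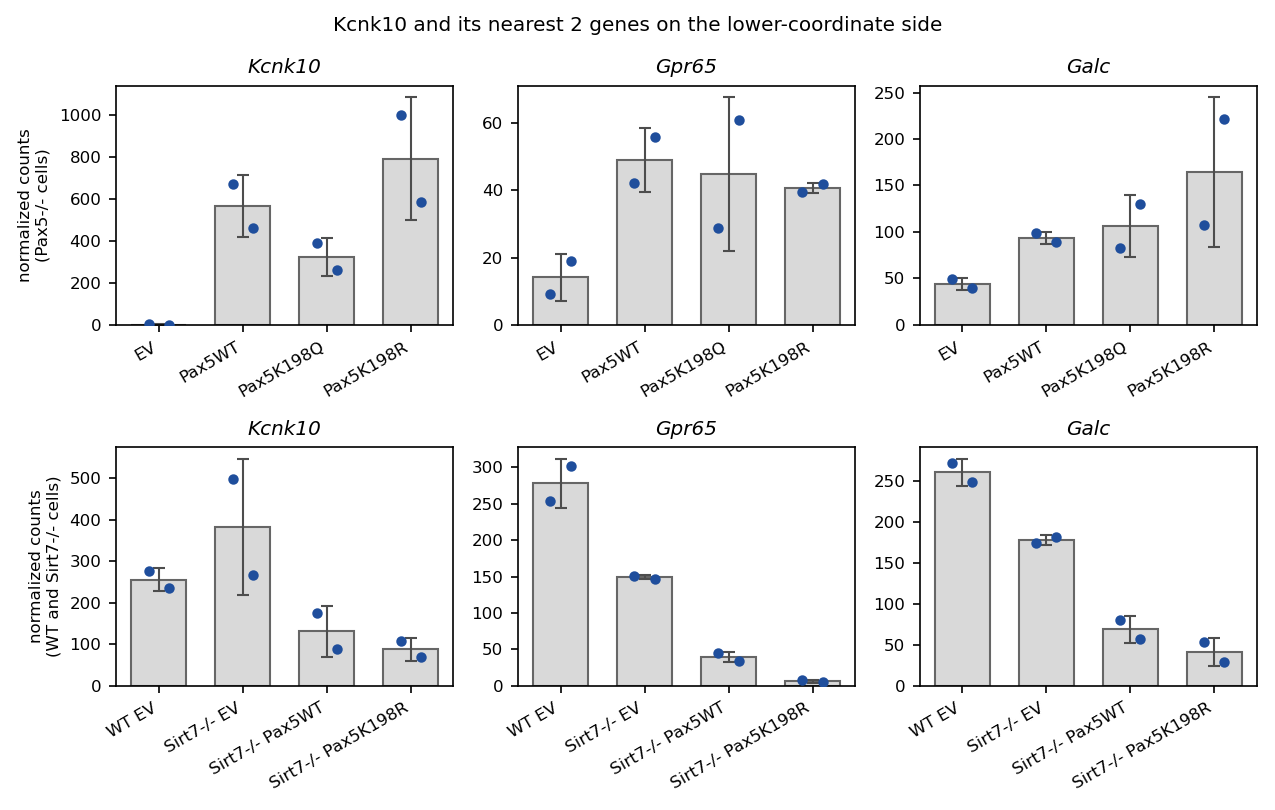
Normalized counts (vertical axes, each from 0) of Kcnk10, Gpr65 and Galc by group in Pax5-/- cells (upper row) and in cultured wild-type and Sirt7-/- cells (lower row), with 1 point per library, bars at the mean and error bars of 1 SD (n = 2). Values are higher with the Pax5 forms than with EV in the upper row, and lower with the forms than with either EV group in the lower row, down to 4.80 for Gpr65.

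With Pax5K198R compared to EV, 4 of 18 Pax5-activated, 2 of 9 Pax5-repressed, 1 of 14 Bcar3 partner and 1 of 6 caveolar genes were called in these cells, where 4.83% of all tested genes were. Of 18 tested Pax5-activated genes, 2 rose and 2 fell with Pax5K198R compared to EV, Sdc4 by 1.22 (adjusted p = 0.0196) and Vpreb3 by -1.36 (adjusted p = 0.00569) among them, with a list median of -0.15 against 0.01 for all genes, and 0 were called with Pax5WT. Of 9 tested Pax5-repressed genes, Emb rose (1.39) and Jchain fell (-1.76). Of 14 Bcar3 partners, Ptk2, the focal adhesion kinase gene, rose with Pax5K198R (1.83, SE 0.35, adjusted p = 0.0295), and of 6 caveolar genes Ehd2 rose (1.55, SE 0.25, adjusted p = 0.0173). The caveolar genes had median log2 fold changes of 1.13 with Pax5WT (5 of 6 higher) and 0.99 with Pax5K198R (6 of 6 higher). Medians of all genes were within 0.01 of 0. All 11 tested stroma and feeder markers were also higher in both comparisons, with medians of 0.96 and 0.59. Their part in the caveolar values was not tested. None of 6 K2P channels (median 0.74 with Pax5K198R, 5 of 6 higher) and none of 6 complement regulators (median 0.09) was called.

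Markers of other cells also moved in this table. The stroma and feeder markers, led by Fn1, summed to 13355 and 10402 normalized counts in wild-type EV, 9675 and 13648 in Sirt7-/- EV, 15112 and 33749 with Pax5WT and 11557 and 25312 with Pax5K198R. Replicate 2 held the more of them with both forms, and Bcar3 in replicate 2 was lower than in replicate 1 with Pax5WT (2680 against 2954) and higher with Pax5K198R (4544 against 4042). The summed immature and mature B cell markers, led by Ighd, stood in the same order of groups as Bcar3. They were 1467 and 1738 in wild-type EV and 3093 and 4279 in Sirt7-/- EV. With Pax5WT they were 6960 and 16252, and with Pax5K198R 14454 and 40100, of which Ighd made up 25102 in the last. Of the 7 tested, 5 were higher than EV with each form. With Pax5K198R 3 were called higher and 1 lower, and with Pax5WT 0 were called. The summed T cell markers, led by Lck or Thy1, went down with Kcnk10. They were at 3266 and 2200 in wild-type EV and 2966 and 1702 in Sirt7-/- EV. With Pax5WT they were at 1220 and 537, and with Pax5K198R at 888 and 522. Of the 3 tested, 1 was higher than EV with each form, and 1 was called lower with Pax5K198R. Cd4 and Cd3d were at 0 in several libraries. Summed NK cell markers, led by Nkg7, were 152 and 41.3 in Sirt7-/- EV, 146 and 50.8 with Pax5WT and 381 and 78.9 with Pax5K198R. The part of all these markers in the Bcar3 and Kcnk10 differences was not tested.

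Several annotated genes overlap the members. On the opposite strand these are Gm40893 for Kcnk10, Gm16083 for Cd55, Gm4610 and Gm42836 for Bcar3 and Gm15581 for Cav2, and on the same strand 5330409N07Rik for Kcnk10 and Gm40190 and Gm25153 for Bcar3. Whether the quantification used strand is not given in the sources used here, so that reads of an overlapping gene cannot be told apart from those of the member.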

How the data were processed

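RNA-seq reads had been quantified by the authors with Salmon (mm10, GC bias corrected) and summed per gene with Tximeta. The deposited signal values are counts scaled by DESeq2's median of ratios. In sorted cells 100% of values were whole reads times 1 factor per library within 0.01 read, 50004827 to 55536608 a library. The Pax5-/- libraries summed to 28865461 to 30520853 and the cultured wild-type and Sirt7-/- libraries to 27814214 to 30160880 normalized counts, with no such step. Rows with no gene name, 9658 and 1745 in the last 2 tables, were kept in the fits. ChIP–seq reads had been aligned with Bowtie2 and peaks called per replicate over input with MACS2, and the deposited lists give fold enrichment over input, a ratio, and −log10 of the q-value. The list used as Pax5K198R replicate 2 names its peaks with another replicate number. The 6 input libraries were not used here.

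A gene was tested if 2 or more of the 8 libraries reached 10 normalized counts, 17649 sorted, 13345 Pax5-/- and 13651 cultured. Log2(value + 1) was fitted with limma 3.58.1 in R 4.3.3, 4 groups a table in 1 fit with a variance trend, and p-values were adjusted over all tested genes of a comparison by the Benjamini-Hochberg method. A fold change on this scale understates the change of low genes. A call needed an adjusted p under 0.05 and, for stages and Pax5-/- cells, a log2 fold change of 1.5 or more in size. The 4 members had 12 such comparisons. The fits were tested on simulated data. With 2 libraries a group, labelled as separate samples, p-values measure the spread between those samples. Groups that did not overlap were common, from 28.7% of all tested genes (Pax5K198Q against Pax5WT, Pax5-/- cells) to 72.6% (stage, sorted wild-type cells). The labels of the sorted libraries carry a number that was read as the mouse, and the pro-B and pre-B libraries of 1 number are paired. The correlation of their deviations was 0.08 in wild-type and 0.16 in Sirt7-/- mice, and blocking by mouse changed no call of a member. Peaks were assigned to a gene within 50 kb of it, and replicates shared a peak at an overlap of at least 1 bp. Positions follow GENCODE M21, and sequences follow RefSeq GRCm38, read with pysam 0.24.0.

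The members, the lists of genes and markers and the comparisons were chosen with earlier results of these data known. Genes named beside the members are the nearest 2 protein-coding genes on each side, the 3 genes most like each member, its neighbours in the ranking and up to 4 genes of each list with the largest change. A gene that this rule would name is not reported here. Alternatives were a pseudocount of 5, no filter, equal library totals, each library left out, a replicate block, edgeR 4.0.16 on whole reads, and other peak windows, overlaps and thresholds.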

Additional observations from a re-analysis of the deposited data

Results flagged for a closer look

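Kcnk10 stood out because adding Pax5 went with opposite changes in the 2 cultures. In Pax5-/- cells both libraries of each form were above both EV libraries, with log2 differences from EV of 8.66 with Pax5WT and 9.11 with Pax5K198R. In cultured Sirt7-/- cells both libraries of each form were below both EV libraries. The log2 fold changes were -1.55 for Pax5WT (adjusted p = 0.273 in limma) and -2.07 for Pax5K198R (adjusted p = 0.0333 in limma). With the replicate number as a block the Pax5WT value was called too. The Pax5K198R call was lost on leaving out any of the libraries compared, or without the filter on low values. Summed T cell markers were also lower with both forms than with EV, although 1 of the 3 tested was higher with each form. The part of these markers was not tested. Groups of 2 libraries lay apart for 42.6% and 46.8% of all tested genes with Pax5WT and Pax5K198R against EV in Pax5-/- cells. In cultured Sirt7-/- cells the shares were 38.7% and 49.6%. The difference between the cultures was not tested, because the contrast with EV in Pax5-/- cells chose the gene. The mice behind the 2 cultures also differ in strain.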

How the results depend on the processing

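Of 368 recomputed log2 fold changes of the 4 genes, 330 kept their direction and side of the threshold, 19 lost a call, 4 gained one and 15 changed sign, all 15 on leaving out 1 library; the causes were not tested. A pseudocount of 5 and equal library totals changed no call of a member, though equal totals moved the median of all genes by stage from -0.04 to -0.12 in wild-type and from -0.04 to -0.14 in Sirt7-/- cells. Without the filter, 1 member was called for Pax5K198R against Pax5WT in Pax5-/- cells (Bcar3; Cd55 at an adjusted p of 0.0656) and 1 for Pax5K198R against EV in Sirt7-/- cells (Kcnk10 at 0.0652). Leaving out 1 library, which assumes that the lone sample varies like the others, gave 0 to 1 called members for Pax5K198R against Pax5WT and 0 to 2 against Pax5K198Q in Pax5-/- cells, and in culture 0 to 1 for Pax5K198R against EV and 0 to 1 for Sirt7-/- against wild-type EV. Signs changed over the ranges -0.066 to 0.16 (Cd55) and -0.078 to 0.31 (Cav2) between genotypes in pro-B cells, -0.21 to 0.13 (Cd55) and -1.88 to 2.51 (Kcnk10) in pre-B cells, and -4.05 to 0.35 for Kcnk10 by stage in Sirt7-/- cells. In culture they were -0.41 to 0.032 for Cav2 between the EV groups, -0.77 to 0.66 (Cd55) and -0.53 to 0.39 (Cav2) for Pax5K198R against EV, and for Cav2 -0.0077 to 0.59 for Pax5WT against EV and -0.82 to 0.10 for Pax5K198R against Pax5WT. Same-numbered cultured libraries deviated together (correlations 0.26 to 0.38 in Pax5-/- and 0.16 to 0.43 in the other cells), and the methods state that replicates were made on different days without tying a number to a day. With the replicate number as a block, 1 member was called for Sirt7-/- against wild-type EV (Bcar3, adjusted p = 0.024) and 2 for Pax5WT against EV in Sirt7-/- cells (Kcnk10, 0.0238; Bcar3, 0.05), 0 were called for Pax5K198Q against Pax5WT and 2 for Pax5K198R against either form in Pax5-/- cells, and no other call of a member changed. The mouse block gave 1 and 2 called members by stage. A 10 kb window gave 2 genes with peaks for each form, where 44.5%, 17.6% and 50.4% of all genes had one. Counts of all called genes moved from 15 to 5 with edgeR and 7 with the block (pre-B genotypes). Without the filter they moved from 88 to 58 (Pax5K198Q against EV) and 337 to 219 (Pax5K198R against Pax5K198Q) in Pax5-/- cells, and in culture from 76 to 44 (EV groups), 659 to 423 (Pax5K198R against EV) and 58 to 16 (Pax5K198R against Pax5WT). With the block they moved from 203 to 325, 88 to 140, 3 to 14 and 213 to 326 (Pax5WT and Pax5K198Q against EV, Pax5K198Q and Pax5K198R against Pax5WT) in Pax5-/- cells and from 76 to 288, 5 to 268, 659 to 1588 and 58 to 314 in culture. On whole reads edgeR called 10, 5, 2257 and 1634 genes where limma called 11, 15, 2451 and 1809. Leaving out 1 library gave 0 to 14 (pro-B) and 16 to 195 (pre-B) called genes between genotypes and 1236 to 2149 by stage in Sirt7-/- cells. In Pax5-/- cells it gave 67 to 114, 29 to 54 and 317 to 735 for Pax5WT, Pax5K198Q and Pax5K198R against EV, and 0 to 1, 21 to 355 and 25 to 506 for Pax5K198Q against Pax5WT and Pax5K198R against Pax5WT and Pax5K198Q. In culture it gave 3 to 66 (EV groups), 1 to 5 and 63 to 225 (Pax5WT and Pax5K198R against EV) and 2 to 13. The interaction of stage and genotype was not recomputed. Counts under 3 with EV limit the fold of Kcnk10 to a wide counting interval and that of Cd55, at 0, to a lower bound.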
